A study of Mus musculus with 2 samples.

Results

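The MAP kinase cascade and the genes that restrain it were examined in mouse macrophages grown from bone marrow. The members are all genes on the array whose symbol begins with Dusp, Map2k, Map3k or Map4k and a digit, or is Mapk with a number, together with Spry1 to Spry4 and Spred1 to Spred3. A total of 69 of the 19505 measured genes met this rule. The rule itself uses symbols and no measured value, but it was set with earlier results of these data known. They comprised 37 kinases, 10 typical MAP kinase phosphatases, 14 atypical dual-specificity phosphatases, 4 Sprouty and 3 Spred genes, and Map3k7cl, which shares a name with the kinase Map3k7 but is not counted here as a kinase. Each member had 1 probe set, and none had the same pair of values as another gene (0 members). Some genes of these families, among them Map2k7, Map3k10, Map4k2 and Map4k3, are not analysed here.

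Gene expression was measured on 2 whole-transcript arrays, 1 for each genotype. The first sample is from LysM (+);MC4RTB/TB animals, written LysM(+) below, and the second from MC4RTB/TB animals, written TB/TB. Both groups therefore carry the TB allele of MC4R, the melanocortin 4 receptor, on both chromosomes, and they differ by LysM. As background, TB usually denotes a transcription block that Cre can excise, and the LysM gene, Lyz2, is a common driver of Cre in myeloid cells; neither is spelled out in the labels. Per the labels, marrow cells of both genotypes were given M-CSF, a macrophage growth factor, on day 0 and once more on day 3. The dose was 25 ng/mL, the serum content 10%, cells were used from day 5, and there was no further treatment. The labels used here do not state the animals' age or sex or whether marrow was pooled.

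The cascade passes a signal through layers of kinases. MAP4Ks and receptor-linked G proteins activate MAP3Ks, these phosphorylate MAP2Ks, and each MAP2K phosphorylates a MAP kinase on a threonine and a tyrosine. The main branches end in ERK, JNK, p38 and ERK5. In macrophages, M-CSF signals largely through ERK, and bacterial products engage ERK, JNK and p38. The typical dual-specificity phosphatases remove both phosphates from MAP kinases, and several of their genes are switched on by the pathway they shut off. Sprouty and Spred proteins act higher up, at Ras and Raf, and Spred proteins bring the Ras inhibitor neurofibromin to the membrane.

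The members differed by role. The inhibitors lay mostly higher in LysM(+) macrophages, while the kinases lay on both sides of 0. Of the 17 typical phosphatase, Sprouty and Spred genes, called the inhibitors below, 14 had a higher value on the LysM(+) array, against 17 of the 37 kinases and 49.3% of all genes. The median log2 difference, LysM(+) minus TB/TB, was 0.28 over the 17 inhibitors, -0.08 over the 37 kinases and -0.01 over all genes. Among members bright enough on both arrays to be read, by the floor given below, the largest differences were those of the phosphatase gene Dusp1, the MAP3K gene Map3k2 and Spred2, all higher in LysM(+). The most negative was that of the MAP3K gene Map3k8. Each group had 1 array and so no measured spread; no test or p-value is given, and every difference describes these arrays only. In such bulk RNA, fewer cells of a type and less RNA per cell cannot be told apart.

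Values are on a log2 scale, and a fold is 2 to the power of the difference. A gene was counted when it differed by 1.5-fold or more and its brighter value was at least 6.12, the median level over named probe sets, called the floor. Of the 69 members, 41 reached the floor, 40 of them on both arrays. Among these, 7 were counted higher and 1 lower in LysM(+), a total of 8. Across all 10137 genes that reached the floor, 10.9% were counted higher, 5.16% lower and 16.1% in either direction. The members as a whole were therefore counted about as often as other genes, at 19.5%. The kinases were counted at 12.5% (3 of 24). The inhibitors were counted at 45.5% (5 of 11, all higher), a share over few genes to which Dusp4 contributed only through its brighter array. Of the 11 inhibitors that reached the floor, 10 did so on both arrays, and all 10 were higher in LysM(+). Of all genes that reached the floor on either array, 57.1% were higher by any amount. That share was not computed for genes at the floor on both arrays. The 3 inhibitors that were lower, Dusp8, Spry1 and Spry4, were under the floor on both arrays.

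**Figure D1:**
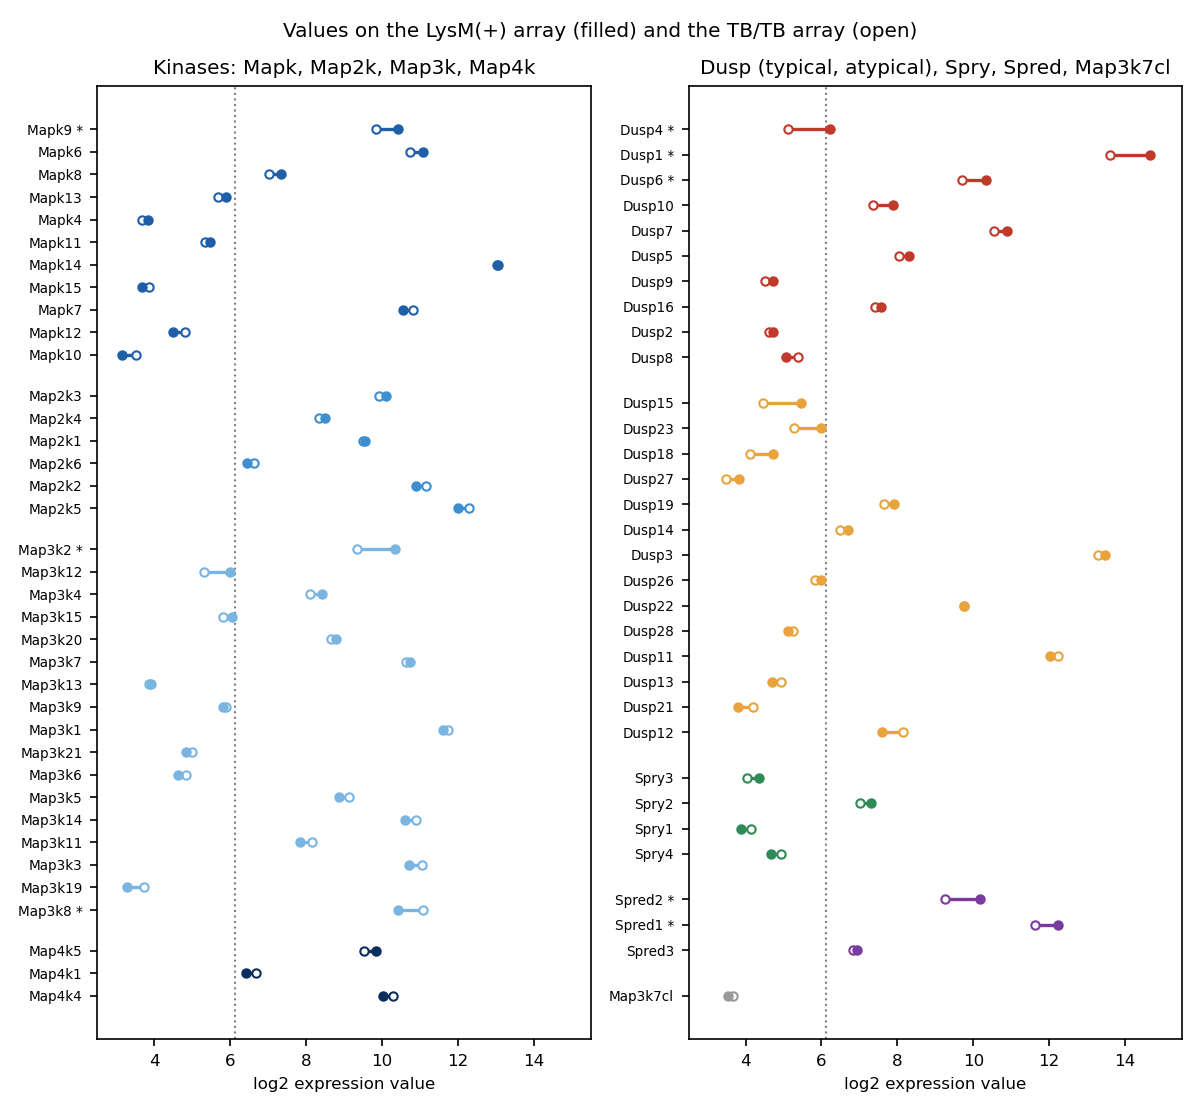
Log2 expression values of the 69 members on the LysM(+) array (filled circle) and the TB/TB array (open circle), by class, kinases on the left and phosphatases, Sprouty, Spred and Map3k7cl on the right; each circle is 1 array, so there are no error bars. The dotted line is the floor of 6.12 and an asterisk marks the 8 counted members; the filled circle lies to the right for 14 of the 17 typical phosphatase, Sprouty and Spred genes.

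Background varied with brightness, so members were also set against genes of like level. Among genes that reached the floor and had a mean value below 8, 21.1% were counted in either direction, and 1 of 12 members was. From 8 to below 10 the share was 17.3%, and 2 of 10 members were counted. At a mean of at least 10 it was 10.7%, and 5 of 19 members were counted: Dusp1, Dusp6, Spred1, Mapk9 and Map3k8. In that brightest range the central 90% of all genes lay between -0.45 and 0.70. The difference of Dusp1 was above that interval and that of Map3k8 below it, while Dusp6, Spred1 and Mapk9 were inside it. From 8 to below 10 the interval was -0.54 to 0.91, and Map3k2 and Spred2 lay above it.

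**Figure D2:**
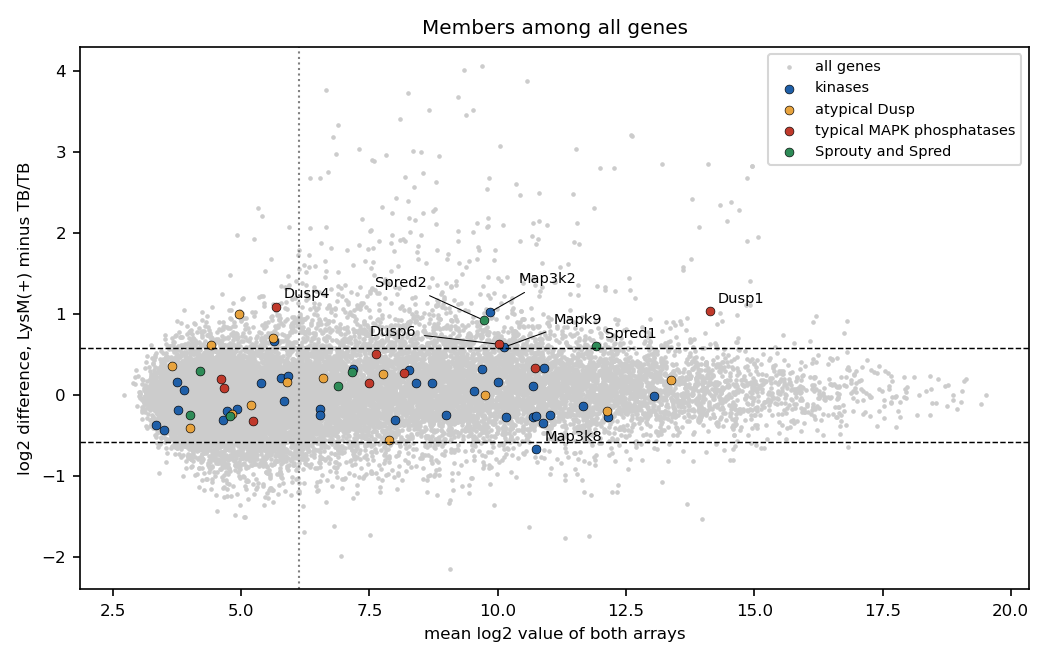
Log2 difference, LysM(+) minus TB/TB, against the mean log2 value of both arrays for all 19505 genes (grey) and the members by class (coloured); each point is 1 gene. Dashed lines mark 1.5-fold and the dotted line the floor of 6.12; the counted members are named, with Dusp1 at 1.03 standing above most genes of its brightness and Map3k8 at -0.67 below most.

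At the top of the cascade, none of the 3 measured MAP4K genes was counted (0 genes). Map4k5 was higher in LysM(+), with values of 9.85 and 9.53 on the LysM(+) and TB/TB arrays. Map4k4 was lower at 10.02 and 10.30. Map4k1, the haematopoietic member, was lower at 6.42 and 6.67, and its values were no brighter than the background controls, which reached 6.81. The differences of the MAP4K genes stayed between -0.28 and 0.33.

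The MAP3K genes held the widest spread among the kinases, from -0.67 to 1.02 over 17 genes. Map3k2 encodes MEKK2, which activates the ERK5 and JNK branches. Its value was 10.35 in LysM(+) and 9.33 in TB/TB, a 2.03-fold higher signal in LysM(+). Map3k8 encodes TPL2, the kinase that links Toll-like receptors to MEK and ERK in macrophages. Its value was 10.41 in LysM(+) and 11.08 in TB/TB, a 1.59-fold lower signal in LysM(+). These genes were the only counted MAP3Ks among the 10 that reached the floor, and they went in opposite directions.

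The other MAP3K genes above the floor differed little. Map3k3, encoding MEKK3, the closest relative of MEKK2, had values of 10.71 and 11.06, so it was lower in LysM(+) by 1.27-fold where Map3k2 was higher. Map3k11 (MLK3) was 1.24-fold lower, Map3k14, the NF-kB-inducing kinase, lower by 0.27 on the log2 scale, and Map3k5 (ASK1), a stress-activated kinase, 1.19-fold lower. Map3k4 was 1.24-fold higher. Map3k7, which encodes TAK1 and feeds both the MAP kinase and NF-kB pathways, differed by 0.11, Map3k20 by 0.14 and Map3k1 by -0.14. A further 7 MAP3K genes were under the floor on both arrays. Of these, Map3k12 was 1.59-fold higher at background-level values of 5.98 and 5.31, and is not counted.

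The 6 measured MAP2K genes all reached the floor on both arrays and none was counted (0 genes). Their differences lay between -0.28 and 0.16, a narrower range than that of the MAP3Ks. Map2k1 and Map2k2 encode MEK1 and MEK2, the activators of ERK. Map2k1 had values of 9.56 and 9.51, and Map2k2 of 10.91 and 11.15. Map2k1 changed sign under quantile normalization and under loess, so no direction is given for it. For the p38 branch, Map2k3 had values of 10.09 and 9.93 and Map2k6 of 6.44 and 6.62, the latter within the background control range. Map2k4, which activates JNK, had values of 8.48 and 8.33. Map2k5, which activates ERK5, had values of 12.01 and 12.28.

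Of the 11 MAP kinase genes measured, 5 reached the floor and 1 was counted. Mapk9, which encodes JNK2, had values of 10.42 in LysM(+) and 9.83 in TB/TB, a difference of 0.59 on the log2 scale that was barely past the threshold. Mapk8, which encodes JNK1, was 1.25-fold higher at 7.34 and 7.02. Mapk10, the JNK gene best known from neurons, was under the floor at 3.15 and 3.52. Mapk14, which encodes p38 alpha, the main p38 of macrophages, had almost equal values of 13.04 and 13.05. The other p38 genes, Mapk11, Mapk12 and Mapk13, were under the floor, between 4.50 and 5.88 on both arrays. Mapk7, which encodes ERK5, was 1.21-fold lower in LysM(+) at 10.55 and 10.82. The atypical kinase gene Mapk6 (ERK3) was 1.25-fold higher at 11.07 and 10.75. Mapk4 and Mapk15 were under the floor.

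Read by branch, the ERK5 genes did not move as a unit. Map3k2 was higher in LysM(+), whereas Map3k3, Map2k5 and Mapk7 were lower by 0.34, 0.28 and 0.28 on the log2 scale, none of them counted. In the JNK branch Map2k4, Mapk8 and Mapk9 were all higher, with only Mapk9 counted. In the p38 branch above the floor, Map2k3 was higher by 0.16, Map2k6 lower by 0.18 and Mapk14 lower by 0.01. None of these p38 genes was counted (0 genes).

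Among the typical MAP kinase phosphatases, 9 of 10 genes had the higher value in LysM(+) and 3 were counted; the median difference was 0.30. Dusp1 encodes MKP-1, a nuclear phosphatase that limits p38 and JNK in activated macrophages. Its value was 14.65 in LysM(+) and 13.61 in TB/TB, a 2.05-fold higher signal. Dusp6 encodes MKP-3, a cytoplasmic phosphatase selective for ERK and a widely used readout of ERK activity. It had values of 10.33 and 9.71, a 1.54-fold higher signal. Dusp4 encodes MKP-2, a nuclear relative of MKP-1. It had values of 6.22 and 5.13, a 2.13-fold difference, but it passed the floor on the LysM(+) array alone and lay within the background control range on both arrays. Its fold therefore rests on background-level signal.

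The other typical phosphatases were not counted. Dusp10 encodes MKP-5, which acts on JNK and p38, and came nearest the threshold at 7.88 and 7.37, or 1.42-fold higher. Dusp7, the close relative of Dusp6, was 1.26-fold higher at 10.89 and 10.56. Dusp5, a nuclear phosphatase specific for ERK, was higher by 0.27 on the log2 scale at 8.31 and 8.05. Dusp16 (MKP-7), which prefers JNK, was 1.11-fold higher at 7.57 and 7.42. Dusp2, Dusp8 and Dusp9 were under the floor, with values between 4.51 and 5.39, and these arrays do not set them apart from background. By location, the nuclear group of Dusp1, Dusp2, Dusp4 and Dusp5 differed by 0.09 to 1.09, and the cytoplasmic ERK group of Dusp6, Dusp7 and Dusp9 by 0.20 to 0.63. The group of Dusp8, Dusp10 and Dusp16, which acts on JNK and p38, differed by -0.32 to 0.51.

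The atypical dual-specificity phosphatases share the catalytic domain but lack the MAP kinase binding domain, and many act on other substrates. None of the 14 was counted (0 genes), and 6 reached the floor. Dusp12 was nearest the threshold, with values of 7.60 and 8.15, a 1.47-fold lower signal in LysM(+). Dusp11, which acts on RNA, was 1.15-fold lower at 12.03 and 12.23. Dusp19 was higher by 0.26 on the log2 scale, Dusp14 1.15-fold higher within the background control range, and Dusp3 (VHR), which can act on ERK and JNK, 1.14-fold higher at 13.48 and 13.29. Dusp22 had nearly equal values of 9.75 and 9.74. Of the 8 under the floor, Dusp15, Dusp23 and Dusp18 were past 1.5-fold higher, with values between 4.11 and 5.98. The median difference of the atypical genes was 0.18 over all 14 and 0.10 over the 6 that reached the floor. The 6 typical phosphatases that reached the floor on both arrays, which leaves out Dusp4, had a median difference of 0.42.

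All 3 Spred genes were higher in LysM(+), and 2 were counted. Spred2 had values of 10.19 in LysM(+) and 9.26 in TB/TB, a 1.90-fold higher signal. Spred1, the member mutated in Legius syndrome in humans, had values of 12.22 and 11.62, a 1.52-fold higher signal. Spred3 was close to equal at 6.93 and 6.82. Of the 4 Sprouty genes, only Spry2 reached the floor. It had values of 7.31 and 7.02, or 1.22-fold higher, and was not counted. Spry1, Spry3 and Spry4 lay between 3.89 and 4.92 on both arrays. These arrays thus do not set Spry1, Spry3 and Spry4 apart from background in these macrophages.

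The start regions of the counted inhibitor genes are shown because these genes lay on the same side, with Dusp5, a typical phosphatase that was not counted, for comparison. Sequences are from RefSeq on build GRCm38.p6, and run 5′ to 3′ from 250 bases before the gene's start to 50 after it. The table of start regions held 53 of the 69 members, Dusp4 not among them. Both strands were searched for the cAMP response element (CRE) TGACGTCA, its core TGACG, the AP-1 site TGACTCA, the E-box CACGTG, the GC box GGGCGG, the ETS site GAGGAAGT bound by PU.1, and the CArG box bound by serum response factor. Capitals mark every match, and the CRE core lies inside the CRE. The regions are chr17:26508423-26508722 on the minus strand for Dusp1, chr10:99262981-99263280 on the plus strand for Dusp6, chr11:19924192-19924491 on the plus strand for Spred2, chr2:117120821-117121120 on the plus strand for Spred1, and chr19:53528895-53529194 on the plus strand for Dusp5.
Dusp1: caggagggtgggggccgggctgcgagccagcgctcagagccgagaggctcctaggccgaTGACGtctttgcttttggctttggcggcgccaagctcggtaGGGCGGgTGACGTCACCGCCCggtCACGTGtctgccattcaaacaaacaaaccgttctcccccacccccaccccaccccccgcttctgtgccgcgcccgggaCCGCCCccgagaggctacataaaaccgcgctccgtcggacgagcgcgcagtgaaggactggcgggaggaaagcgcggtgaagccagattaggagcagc
Dusp6: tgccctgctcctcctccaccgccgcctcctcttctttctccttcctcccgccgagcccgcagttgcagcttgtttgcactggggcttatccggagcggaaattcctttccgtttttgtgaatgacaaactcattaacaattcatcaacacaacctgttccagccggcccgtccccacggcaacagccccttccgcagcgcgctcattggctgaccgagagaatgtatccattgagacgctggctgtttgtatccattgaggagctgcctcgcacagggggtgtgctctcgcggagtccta
Spred2: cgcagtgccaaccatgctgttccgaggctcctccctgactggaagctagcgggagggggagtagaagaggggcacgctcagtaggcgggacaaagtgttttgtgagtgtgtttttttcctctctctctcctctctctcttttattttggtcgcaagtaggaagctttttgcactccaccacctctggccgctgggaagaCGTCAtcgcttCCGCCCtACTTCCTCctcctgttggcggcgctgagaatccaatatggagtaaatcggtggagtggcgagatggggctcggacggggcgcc
Spred1: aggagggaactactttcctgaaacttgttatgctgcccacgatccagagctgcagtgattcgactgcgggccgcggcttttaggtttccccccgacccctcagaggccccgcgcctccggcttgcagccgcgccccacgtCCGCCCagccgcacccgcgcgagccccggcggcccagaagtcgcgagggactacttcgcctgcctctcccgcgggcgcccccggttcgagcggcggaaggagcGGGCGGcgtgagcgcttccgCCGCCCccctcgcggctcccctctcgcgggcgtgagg
Dusp5: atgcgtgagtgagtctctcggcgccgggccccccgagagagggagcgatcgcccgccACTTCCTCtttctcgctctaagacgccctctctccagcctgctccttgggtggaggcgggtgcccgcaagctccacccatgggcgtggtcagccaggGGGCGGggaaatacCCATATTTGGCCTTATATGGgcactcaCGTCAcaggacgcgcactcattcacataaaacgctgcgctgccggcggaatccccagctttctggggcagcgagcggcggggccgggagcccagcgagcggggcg

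A GC box was in every printed region but that of Dusp6, and the CRE core in those of Dusp1, Spred2 and Dusp5. Among inhibitors with a region, 11 of 13 held a GC box and 6 of 13 the CRE core. Among kinases with a region these were 22 of 30 and 12 of 30, and over all regions 35.6% and 20.8%. The member counts are of genes with a match in any of their regions, whereas the percentages are of regions. A gene with several regions has more places to match, so these shares are not of the same unit. The Dusp1 region held a full CRE beginning 143 bases before the start, flanked by GC boxes on both sides, and an E-box beginning 126 bases before it. A full CRE was found in 1.79% of all 32817 start regions of this length and an E-box in 7.15%. Among the 13 inhibitors with a region, Dusp1 and Dusp8 held a CRE, and Dusp8 was under the floor. The Spred2 region held the CRE core, a GC box and the PU.1-type site, the last in 3.20% of all regions. The Spred1 region held only GC boxes, which 35.6% of all regions held, and the Dusp6 region held none of these motifs. Dusp5, which was not counted, held a pair of adjacent CArG boxes and the PU.1-type site; a CArG box was found in 1.63% of all regions and the CRE core in 20.8%. The AP-1 site, in 5.20% of all regions, was in none of the 13 inhibitor regions (0 genes). A match describes the letters only, and a missing match says nothing about a factor.

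Genes around the cascade were taken from lists of its upstream parts and its targets. Of 7 measured Ras and Raf genes, 1 was counted higher and 1 lower: the Ras-related Mras, higher by 0.59 on the log2 scale, and Rras2, at 1.56-fold lower in LysM(+). The dimmer value of each was within the background control range. The median difference of that list was 0.19. Of 16 receptor adaptors and Ras exchange factors, Gab1, a docking protein of growth factor receptors, was counted at 1.68-fold lower and no gene was counted higher (0 genes). Of 8 Ras GTPase-activating proteins, which switch Ras off, Rasal3 alone was counted, at 1.63-fold lower. Nf1, the neurofibromin gene through which Spred proteins act, had values of 11.03 and 11.01. Of 14 scaffold genes, Tab3, an adaptor of TAK1, and Lamtor1, part of the late endosomal complex that holds MEK, were 1.65-fold and 1.57-fold higher. None of the 7 kinases activated by MAP kinases was counted (0 genes), and their median difference was -0.20. A list of 8 genes held the M-CSF receptor, its ligands and receptors for other growth factors. Csf1r, the M-CSF receptor itself, had values of 17.69 and 17.89 and was not counted. Csf2rb, which encodes a chain of other cytokine receptors and not of the M-CSF receptor, was alone counted, at 1.70-fold lower.

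Target genes of the pathway differed by list. Of 28 immediate-early genes, 3 were counted higher and none lower (0 genes), with a median difference of 0.07. Those counted were 13.6% of the genes on this list that reached the floor, against 10.9% counted higher among all genes. Fos was higher by 2.10 on the log2 scale, Myc had values of 12.18 in LysM(+) and 10.57 in TB/TB, and Nr4a2 6.20 and 5.47, the last under the floor in TB/TB. Of the 22 that reached the floor, 13 were higher by any amount and 9 lower, and those not counted lay between -0.49 (Nr4a1) and 0.37 (Fosl2). Of 16 delayed ERK targets and ETS-family genes, 5 were counted higher and none lower (0 genes), with a median difference of 0.25. These were Plau (urokinase) at 4.43-fold, Ets2 at 2.96-fold, the potassium channel gene Kcnn4 at 2.07-fold, Etv5 at 1.67-fold and Spsb1 at 1.51-fold. Of the 12 delayed genes that reached the floor, 9 were higher by any amount and 3 lower. The share counted higher was 41.7% of those 12, against 10.9% of all genes. It is a share over few genes, from a list written with earlier results of these data known. Ets2 in TB/TB, and Nr4a2 and Spsb1 on both arrays, were within the background control range.

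**Figure D3:**
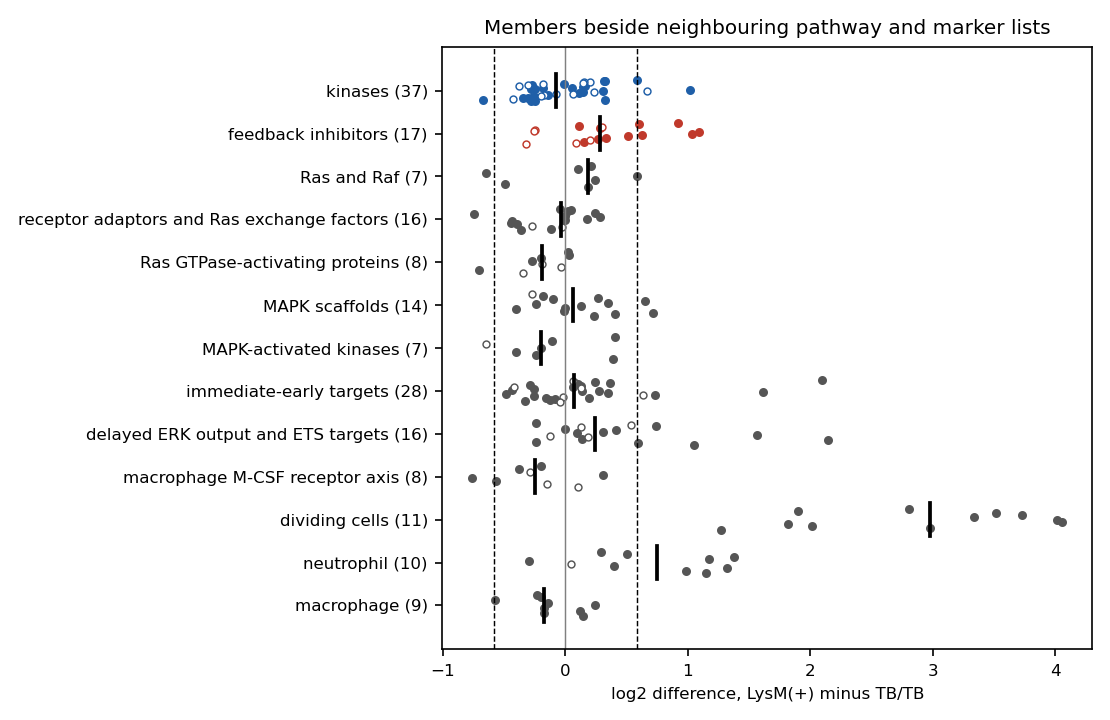
Log2 difference, LysM(+) minus TB/TB, for each measured gene of the kinases (blue), the typical phosphatase, Sprouty and Spred genes (red) and neighbouring pathway and marker lists (grey), with the number of genes in brackets; open circles are genes under the floor, black bars the medians and dashed lines 1.5-fold. The inhibitors have a median of 0.28 against -0.08 for the kinases, and the dividing-cell list, at 2.98, lies far to the right of both.

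Markers of some other states and cell types also differed between the arrays. All 11 measured markers of dividing cells were counted higher in LysM(+), and their median difference was 2.98. Their summed level, as log2 of the summed linear values, was 14.60 in LysM(+) and 11.58 in TB/TB. Of these markers, 9 reached the floor on both arrays. Cdk1 and Bub1, at 5.22 and 5.37 in TB/TB, reached it only on the LysM(+) array, where they are high. Top2a, Ccna2, Aurka and Birc5 were within the background control range in TB/TB. Of 10 neutrophil markers, 5 were counted higher and none lower (0 genes), with summed levels of 16.67 and 16.28. Among the counted ones, Mmp9 was under the floor in TB/TB at 5.30, and Elane and Retnlg were within the background control range there. The 9 measured macrophage markers all reached the floor, none was counted (0 genes), and their summed levels were 19.97 and 20.13. Of 4 T cell markers 1 reached the floor, with summed levels of 10.06 and 10.28. No B cell, NK cell or mast cell marker did (0 genes), with summed levels between 6.46 and 7.16. Of 5 dendritic cell markers 1 reached the floor, and of 4 fibroblast markers 3 did, with Col1a2 counted lower; summed levels were 7.15 and 7.25, and 9.95 and 10.27. The part of dividing or neutrophil-like cells in the differences of Dusp1, Dusp6, Spred1, Spred2, Map3k2, Map3k8 and Mapk9 was not tested. Mc4r had values of 4.45 and 4.57, under the floor on both arrays, so the arrays do not check the genotype.

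How far the counts depend on scaling was read from 4 scalings of the same values. Dusp1, Dusp4, Map3k2, Spred2 and Map3k8 were counted under the deposited values, after centring, after quantile normalization and after loess. Dusp6, Spred1 and Mapk9 were counted as deposited and after centring but not after the others. After quantile normalization their differences were 0.53, 0.53 and 0.50, and after loess 0.56, 0.54 and 0.52, against a threshold of 1.5-fold. The number of inhibitors that were higher was 14 of 17 under each of the 4 scalings.

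**Figure D4:**
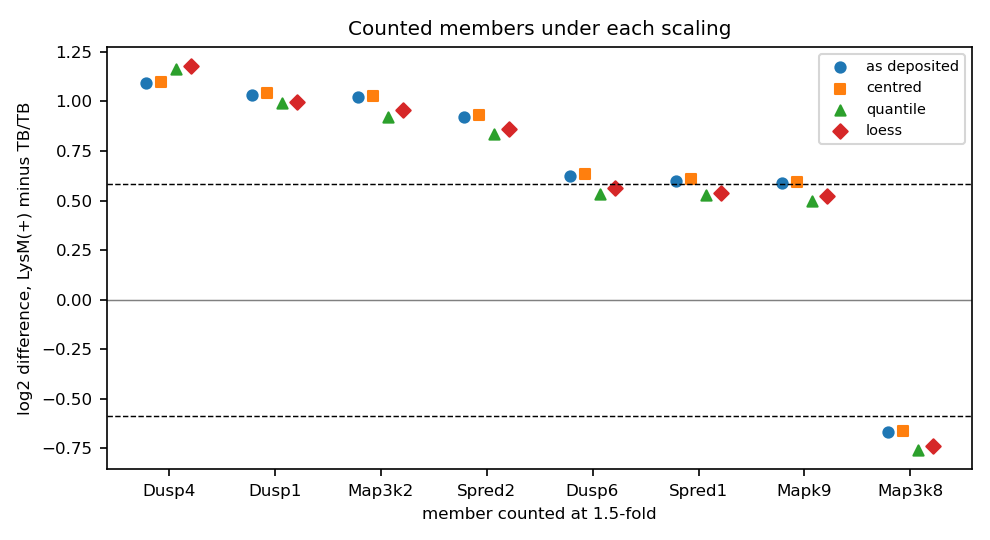
Log2 difference, LysM(+) minus TB/TB, of the 8 counted members as deposited, centred on the median difference, after quantile normalization and after loess on the mean value; dashed lines mark 1.5-fold. Dusp6, Spred1 and Mapk9 fall just inside the dashed line under quantile normalization and loess, and no member changes sign.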

How the data were processed

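The submitters' processing notes name RMA and Affymetrix Expression Console, without versions, as the source of the deposited log2 values, 1 per probe set. RMA corrects background, normalizes arrays and summarises probes. Base 2 was taken from the method's name, and values reached 19.5, higher than is usual for RMA, so every fold depends on that reading. Of 28846 probe sets, 19572 were named by the platform annotation; updating through the RefSeq table of GRCm38.p6 changed 0 symbols. Probe sets of a gene were averaged. No detection calls were used; 23 background control probe sets had values from 3.09 to 6.81, at most 0.09 apart on the 2 arrays.

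Members and lists were chosen with earlier results of these data known. Every counted member is named, as are the measured conventional MAP kinases, MAP2Ks, typical phosphatases, Sprouty and Spred genes, and the highest and lowest others of each class above the floor. Of each neighbouring list up to 5 counted genes are named. Nf1, Csf1r, Nr4a1, Fosl2 and Lyz2 were added after their values were seen. The alternatives were centring, quantile normalization, loess (span 0.4), the brightest probe set, other floors, a 2-fold threshold and platform symbols. The counting rule was run on simulated data with planted differences far past the threshold and little noise. That run checks that the rule works as written, and not how far the counts can be trusted. Python 3.11.15, numpy 2.4.6, pandas 2.3.3 and statsmodels 0.14.6 were used. The number of arrays limits the precision.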

Additional observations from a re-analysis of the deposited data

How the results depend on the processing

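The number of members counted higher was 7. It was 4 after quantile normalization and after loess, 11 with no brightness floor and 3 at 2-fold; the number counted lower was 1, and 0 at 2-fold. The added members with no floor were Dusp15, Dusp18, Dusp23 and Map3k12. Medians moved mainly with the filter on dim genes. With both arrays above the floor, the median difference was 0.42 for the typical phosphatases (6 genes), 0.44 for Sprouty and Spred (4 genes), and the median of the inhibitors exceeded that of the kinases by 0.50, against 0.36 over all measured members. With the floor raised to the highest background control, the typical phosphatases again had 0.42 and Sprouty and Spred 0.44, while the atypical phosphatases went from 0.18 to 0.0049 (5 genes) and the kinases went from -0.08 to 0.02 (22 genes). A pair of settings for that gap was chosen after seeing the data. With all Dusp genes taken as inhibitors it was 0.28 (31 genes), and with members that reached the floor on either array 0.59, a value that includes Dusp4, which passed only through the array where it is high. Of the values for all classes and counts under these alternatives, 48 stayed within 0.1 on the log2 scale, or 1.5 times the count, and 12 did not. Of the differences of the 8 counted members, 59 kept their count and 13 lost it, with no change of sign. Map2k1 and Dusp22 changed sign under quantile normalization and loess, and Map3k9 under loess. No paired analysis was possible because each group has 1 array.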

Other observations

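Map3k2 and Map3k8, the 2 counted MAP3K genes, both lie on chromosome 18 in the RefSeq table, as does Mc4r. Of 440 measured genes on that chromosome, 34 of the 230 that reached the floor were counted in either direction, or 14.8%, against 16.1% of all genes. The other members on it, Mapk4 and Spry4, were under the floor. By the labels both groups carry the same MC4R allele, so Mc4r is not the locus by which they differ. No such count was made for the chromosome of Lyz2, the LysM gene. Any part of gene position in these differences was not tested.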
